A study of Homo sapiens with 4 samples.

Results

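Cytosolic ribosomal proteins were read on 4 Affymetrix HG-U133 Plus 2.0 arrays by 121 of 54675 probe sets, which stood for 60 of the 19775 genes named by a single symbol. They were chosen by symbol alone: RPL or RPS with a number, the stalk proteins RPLP, and RPSA of the small subunit. Pseudogenes, the Y-linked genes and the RPS6K kinases were left out. The rule allowed RPSA and RPLP0, but neither is among the 60 genes. Of the 60 genes, 32 encode proteins of the large subunit and 20 proteins of the small subunit. The other 8 are extra paralogues, second-copy or tissue-restricted relatives of a main gene: RPL3L, RPL7L1, RPL10L, RPL22L1, RPL26L1, RPL36AL, RPL39L and RPS27L. A further 65 probe sets carried several symbols with a ribosomal one among them and were not counted as members, and 15 genes read only by such probe sets were not analysed here.

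The study compared CL1-0, a human lung adenocarcinoma line, with CL1-5, known as a more invasive subline of it. CL1-0 cells held a control vector or a vector for AK4, a mitochondrial adenylate kinase. CL1-5 cells held a non-silencing control shRNA or one directed at AK4. All 4 cultures were stably transduced and selected with puromycin for 2 weeks, and 6 µg of total RNA was labelled from each. Each group was 1 array, so no difference below has a replicate error or a test. No source used here gives the promoters of the vectors, the shRNA sequence, or whether a culture was a clone or a pool.

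The ribosome is built from ribosomal RNA and the proteins of this family, most of them present as a single copy in each ribosome. Their mRNAs are among the most abundant of a growing cell. Most of them start with a C followed by a run of pyrimidines, the 5′ terminal oligopyrimidine (TOP) motif, through which mTORC1 controls their translation. Paralogues such as RPL22L1 or RPL39L can replace the main copy in some tissues. Free RPL11, with RPL5 and 5S RNA, is known to bind MDM2 and so to link ribosome assembly to p53.

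The start sites of 8 members are shown because these genes carry the main differences below or are the main copies beside a paralogue. Each window is 30 bases, 15 before and 15 from the annotated start, from RefSeq on GRCh38.p14, and capitals mark the pyrimidine run that begins with C at the start.
RPL22L1: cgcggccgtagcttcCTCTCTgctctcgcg
RPL22: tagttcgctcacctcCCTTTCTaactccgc
RPL35A: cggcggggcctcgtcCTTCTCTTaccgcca
RPL38: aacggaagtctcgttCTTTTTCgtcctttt
RPL31: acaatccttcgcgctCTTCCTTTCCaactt
RPS27: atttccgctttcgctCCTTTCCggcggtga
RPS27L: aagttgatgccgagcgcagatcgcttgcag
RPL36AL: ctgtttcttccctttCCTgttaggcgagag
The windows lie at chr3:170870181-170870210 on the minus strand for RPL22L1, chr1:6199581-6199610 minus for RPL22, chr3:197950175-197950204 plus for RPL35A and chr17:74203663-74203692 plus for RPL38. Those of the others are chr2:101002274-101002303 plus for RPL31, chr1:153990747-153990776 plus for RPS27, chr15:63157463-63157492 minus for RPS27L and chr14:49620612-49620641 minus for RPL36AL. RPL22 and its paralogue RPL22L1 both start in a pyrimidine run, whereas RPS27L does not start with a C, unlike RPS27. In RPL36AL the run stops after the bases CCT.

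Of the 60 members, 52 had a RefSeq promoter of 300 bases in the table used. A C at the annotated start followed by at least 4 pyrimidines was found in 34 of them, or 65.4%, against 4.04% of all 27305 promoters. Allowing the run to begin within 5 bases of the annotated start gave 42 of 52, or 80.8%, against 21.1%. Without the paralogues the share at the exact start was 33 of 46, and among the 6 paralogues with a promoter it was 1, RPL22L1. Searched on both strands of the 300 bases, the ETS-type motif CCGGAAG was present in 19 of the 52 (36.5%, against 10.7% of all promoters) and the YY1-type motif AAGATGGC in 5 (9.62%, against 3.03%). Among 15842 protein-coding promoters the exact start was found in 4.60% and the start within 5 bases in 22.1%. There the ETS-type motif was found in 14.2% and the YY1-type motif in 3.91%. These are matches of letters in a window, not measured sites.

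The arrays differed between the lines in ways that touch every line comparison. Deposited medians were 6.07 and 6.23 in CL1-0 and 15.6 and 15.3 in CL1-5, while the highest deposited values lay close together, between 9442 and 10536. The 3′ to 5′ signal ratio of beta-actin was 6.04 and 6.54 in CL1-0 and 1.34 and 1.61 in CL1-5. For GAPDH this ratio differed much less, at 1.25 and 1.54 in CL1-0 and 1.04 and 1.07 in CL1-5. The BioB hybridisation controls, averaged over 6 probe sets after scaling, fell from 785 on the CL1-0 control array to 316, 122 and 110. The part of these in the results below was not tested. AK4 was lower with its shRNA in CL1-5, at log2 ratios of -1.25 to -0.88 over 4 probe sets, and was not higher on the CL1-0 array labelled AK4 vector, at -0.25 to -0.05, so directions drawn from that array rest on its label. The labels call both lines alveolar type II cells. SFTPC, the defining surfactant gene, read 24.0 to 30.8 and NKX2-1 read 13.7 to 25.8, not far above the floor of 6.94 to which lower signals were set, and SLC34A2 was at the floor on all arrays. In CL1-0 LAMP3 read 210 and 160, ABCA3 78.2 and 76.9, SFTPB 38.8 and 34.0, and NAPSA 9.50 and 8.99. In CL1-5 LAMP3 was at the floor, while ABCA3 read 39.7 and 36.3, SFTPB 22.4 and 23.7, and NAPSA 19.6 and 19.2. SFTPD was above the floor only on the CL1-0 control array, at 9.48. Of the alveolar list, 5 of 8 members read were above the floor on every array, with a summed signal of 133 to 401.

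Ribosomal protein probe sets were among the brightest of every array. Between 67 and 69 of the 121 lay in the top 1% of probe sets, and 107 to 114 lay above the floor. Together they carried 9.45% of the summed deposited signal in CL1-0 with control vector and 10.2% with AK4 vector. In CL1-5 the share was 5.69% on the non-silencing array and 5.61% after AK4 knockdown. Both CL1-0 arrays were thus above both CL1-5 arrays in this share, which needs no scaling between arrays. With 1 probe set a gene the shares were 7.10%, 7.81%, 4.30% and 4.25% in the same order. The background of dim probe sets, which enters the total, was also higher in CL1-5, as the medians show.

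In CL1-0, ribosomal protein genes differed little between the AK4 vector and control vector arrays. On the log2 scale after scaling to a common trimmed mean, 48 of 60 had a ratio above 0, where 56.1% of all measured genes did, and their median was 0.14 against 0.05 for all measured genes. This median lay between 0.05 and 0.14 under the 8 other ways of processing tried. The count above 0 was 38 of 60 after quantile normalization, 43 of 60 with equal medians and 20 of 30 without _x_at and _s_at sets. It was 48 of 60 after loess and 44 of 58 as deposited. The share of all genes above 0 was not counted for these. Under trimmed-mean scaling no member was at least 2-fold higher (3.22% of all measured genes were), and 2 were at least 2-fold lower (1.17% of all). The small subunit genes had 19 of 20 ratios above 0 and a median of 0.23, and the large subunit genes 26 of 32 and 0.14; after quantile normalization these medians were 0.093 and 0.047. The 8 paralogues had a median of -0.19, below 0 under each processing tried. Ratios ran from -1.57 to 0.54 in the large subunit, -0.03 to 0.55 in the small subunit and -0.59 to 0.96 among the paralogues. The interquartile range of all measured genes was -0.22 to 0.34.

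RPS27L, the paralogue of RPS27 that is known as a p53 target, had the highest ratio when read by its brightest probe set. Its scaled signal was 631 with control vector and 1224 with AK4 vector, a log2 ratio of 0.96, and it read 728 and 710 on the CL1-5 arrays. The AK4 vector array was above the control array of its line, and above both CL1-5 arrays under this scaling but not as deposited, where the values were 445 and 850 in CL1-0 and 940 and 929 in CL1-5. Another 2 probe sets of RPS27L lay near the floor in CL1-0, so that the ratio was 0.40 when its probe sets were averaged and 0.10 without the _x_at and _s_at sets. One of these, dim in every sample, was higher in CL1-5, at 6.94 and 7.69 in CL1-0 against 51.6 and 52.7. Its main copy RPS27 read 9145 and 11686 in CL1-0, a log2 ratio of 0.35.

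RPL36AL, the autosomal paralogue of RPL36A, followed with 960 and 1441 in CL1-0, a log2 ratio of 0.59, and with 1323 and 1282 in CL1-5. Here the control vector array was the lowest under this scaling, though with equal medians the ratio of the control arrays turned to -0.026. RPS28, a small subunit protein, had a ratio of 0.55, RPL35, at the exit of the peptide tunnel, 0.54, and RPS15, RPL18, RPL14 and RPL36 had 0.52, 0.52, 0.48 and 0.47. RPS28 and RPS15 turned to -0.18 and -0.086 without _x_at and _s_at sets, where dimmer probe sets are read.

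At the other end lay RPL22L1, whose signal was 3535 with control vector and 2348 with AK4 vector, a log2 ratio of -0.59. RPL7L1, a relative of RPL7 known from ribosome assembly, RPL39L, a testis-enriched relative of RPL39, and RPL26L1 had -0.29, -0.23 and -0.21. Only RPLP2 and RPL27A passed 2-fold, both read by dim probe sets. RPLP2, a protein of the stalk that recruits elongation factors, read 71.2 and 23.9 in CL1-0 and 36.6 and 28.9 in CL1-5, with a log2 ratio of -1.57 in CL1-0. RPL27A read 143 and 55.0 in CL1-0 and 88.0 and 67.1 in CL1-5, with -1.38.

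Bright and dim probe sets of these genes read differently in CL1-0, and the split at a mean scaled signal of 500 was set after the values were seen. The 74 bright ones lay between -0.59 and 0.96, with 0 past 2-fold. Of all 33122 measured probe sets 1057 passed 2-fold upwards and 536 downwards. As 1036 and 513 of these were under 500, few bright probe sets of any gene passed it. Of the members' 47 dim probe sets, 36 were measured. Among them 4 passed 2-fold upwards and 6 downwards, where 3.3% and 1.64% of all measured probe sets under 500 did. A dim probe set of RPL37A read 1146 and 93.9 in CL1-0, a ratio of -3.61, and 219 and 205 in CL1-5, while the bright one of that gene gave 0.14. Dim probe sets of RPS10, a protein at the mRNA entry of the small subunit, and of RPL38 gave -2.72 and -2.44 while the bright ones gave -0.03 and 0.14. On the higher side stood single dim probe sets of RPL31 at 1.44, RPS24 at 1.36, RPL35A at 1.26 and RPS15A at 1.09. The CL1-0 control array is also the one with the highest BioB signal, 785 against 316 on the AK4 vector array, and the part of this was not tested.

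In CL1-5, the AK4 shRNA and non-silencing arrays read ribosomal protein genes almost alike. Of 59 measured, 16 had a ratio above 0, where 49.7% of all measured genes did, and the median was -0.03. Quantile, common-median and loess scaling put that median between 0.00 and 0.02 and the count above 0 at 26, 37 and 33 of 58, so neither has a direction. No member passed 2-fold in either direction, and 0.0914% of all measured genes were that much higher and 0.0131% that much lower. Ratios ran from -0.39 to 0.07 in the large subunit, -0.12 to 0.15 in the small subunit and -0.22 to 0.19 among the paralogues. The members' ratios had a standard deviation across genes of 0.10, against 0.22 for all measured genes and 0.38 for the members in CL1-0. For 29 bright genes that are not ribosomal proteins, chosen after the values were seen, it was close to the members', at 0.12 in CL1-5 and 0.41 in CL1-0. The SD between bright probe sets of 1 gene, over 15 members, was 0.07 here and 0.08 in CL1-0; it describes scatter within arrays and is no replicate error.

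The lowest ratios in CL1-5 were again those of the dimly read RPL27A at -0.39 and RPLP2 at -0.34. RPL35A followed at -0.26, with a scaled signal of 1951 on the non-silencing array and 1627 after AK4 knockdown, and its other bright probe set gave -0.20. RPL26L1 had -0.22 and RPL36 had -0.16. The highest were RPL10L, a testis-enriched relative of RPL10 read near the floor, at 0.19, and RPS25, known for its part in translation from internal entry sites, at 0.15. RPL3, RPL7L1 and RPL14 were each at 0.07. RPL22L1 read 301 and 305, a ratio of 0.02.

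Between the lines most of the family read lower in CL1-5, by an amount, and for some genes in a direction, that depends on the scaling. With trimmed means made equal, 56 of 59 members had a lower signal on the CL1-5 non-silencing array than on the CL1-0 control array, and 3 had a ratio above 0, where 56% of all measured genes did. Their median log2 ratio was -0.96 against 0.13 for all measured genes. It was -1.45 with equal medians, -0.32 after loess, -0.24 after quantile normalization and -0.090 as deposited, where 20 members lay above 0. The members' median stayed below that of all measured genes under each of these, by 1.09, 1.15, 0.26, 0.18 and 0.92 in the same order. As deposited the all-gene median was 0.83. Other bright genes also read lower in CL1-5 under trimmed-mean scaling. Of 29 that are not ribosomal proteins, chosen after the values were seen, 25 lay below 0, with a median of -0.56. Among these 8 were at least 2-fold lower and 1 higher. With all probe sets of a gene averaged the members' median was -0.70, and with the less specific _x_at and _s_at probe sets dropped it was -0.37. In bulk RNA fewer transcripts a cell and a smaller share of cells with them cannot be told apart.

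Under trimmed-mean scaling 26 members were at least 2-fold lower (14.2% of all measured genes were) and 0 at least 2-fold higher (17.1% were). The count lower was 48 with equal medians, 4 after quantile normalization, 4 after loess and 2 as deposited. Under these other scalings the share of all measured genes was not counted, so those member counts have no background beside them. The 4 under quantile and loess were RPL22L1, RPL35A and RPL38 of the 26 and RPLP2, which is not among them. The 26 were RPL7, RPL9, RPL12, RPL14, RPL19, RPL22L1, RPL23A, RPL27, RPL29, RPL31, RPL32, RPL34, RPL35A, RPL36, RPL37, RPL37A, RPL38, RPS4X, RPS6, RPS7, RPS10, RPS12, RPS15A, RPS18, RPS19 and RPS23. A second bright probe set fell short of 2-fold for RPL7, RPL14 and RPS19, at -0.77, -0.94 and -0.81. Large subunit genes had a median of -1.01 and small subunit genes -0.92, which became -0.14 and -0.046 as deposited; without _x_at and _s_at sets the small subunit median turned to 0.093. The paralogues had -0.28, or 0.50 as deposited. Ratios ran from -2.03 to -0.19 in the large subunit, -1.36 to -0.23 in the small subunit and -3.55 to 0.46 among the paralogues, beside an interquartile range of -0.52 to 0.74 for all measured genes.

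A few members stood apart from the rest of the family under each scaling tried. RPL22L1 read 3535 and 2348 in CL1-0 and 301 and 305 in CL1-5, by a single probe set. Both CL1-5 arrays lay far below both CL1-0 arrays, at log2 ratios of -3.55 for the controls and -2.95 for the AK4-altered arrays. Over the 6 other settings that keep the probe set, its ratio for the controls lay between -4.04 and -2.68. RPL22, the main copy, which binds structured RNA and is dispensable in many cells, read 6465, 7160, 3434 and 3294, a ratio of -0.91 for the controls and within 0.05 of the members' median. Its 5 probe sets gave -1.16 to -0.27.

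RPL35A, a large subunit protein mutated in some patients with Diamond-Blackfan anaemia, read 7974 and 8042 in CL1-0 and 1951 and 1627 in CL1-5, with ratios of -2.03 and -2.31. A second bright probe set of it gave -2.15 and -2.22. Over the same settings the ratio for the controls lay between -2.52 and -1.16. A dim probe set, the only one left when sets ending in _x_at or _s_at are dropped, gave 0.0092. RPL38, known for its part in the translation of Hox mRNAs in the mouse embryo, read 8895 and 9818 in CL1-0 and 2523 and 2494 in CL1-5, with -1.82 and -1.98 and a range of -2.31 to -0.95 for the controls. Dim probe sets of RPL38 gave -0.57 and -0.29 for the controls and 0.78 and 1.75 for the AK4-altered arrays. RPL31, at the peptide exit, read 10644 and 11700 against 3617 and 3543, with -1.56 and -1.72, and RPL29 had -1.39 and -1.68. Dim probe sets of RPL31 gave -0.27 and -3.23 for the controls and -1.40 and -3.90 for the AK4-altered arrays. Relative to the members' median, the controls gave -2.59 for RPL22L1, -1.07 for RPL35A, -0.86 for RPL38, -0.60 for RPL31 and -0.43 for RPL29.

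At the upper end RPL36AL had 0.46, RPS27L 0.21 and RPL3L, a muscle relative of RPL3 read near the floor, 0.16 for the controls, but with equal medians RPL36AL and RPS27L lay below 0 and RPL3L was at the floor on both arrays. On the AK4-altered arrays RPL36AL and RPS27L had -0.17 and -0.79. Among the main genes RPL35 had the smallest difference, reading 4110 and 5974 in CL1-0 and 3602 and 3545 in CL1-5. Its ratios were -0.19 and -0.75, and RPS9, RPL18 and RPS15 had -0.23, -0.23 and -0.25 for the controls, with -0.72, -0.88 and -0.77 for the AK4-altered arrays. As deposited, these 4 had ratios above 0 for the controls, from 0.62 to 0.68. The other paralogues RPL7L1, RPL39L, RPL26L1 and RPL10L had -0.87, -0.52, -0.47 and -0.10 for the controls, beside -1.01, -0.92 and -0.93 for the main copies RPL7, RPL39 and RPL3.

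The AK4-altered arrays, which share no array with the controls, gave the following values under this scaling. All but 3 of 60 members had a ratio below 0 (53.5% of all measured genes had one above 0), the median was -1.12 against 0.07, 40 were at least 2-fold lower (14.8% of all) and 0 at least 2-fold higher (14.7% of all). As deposited the median was -0.21 and 3 were lower, with the share of all genes not counted. Across the 59 genes measured in both readings, 53 had the same sign, with Pearson's r of 0.81 and Spearman's rho of 0.87. Genes are not replicates, and both readings share the lines, the probe sets and the difference in background. In 53 of 60 members both CL1-5 arrays lay below both CL1-0 arrays, where 34% of all genes did, and in 0 above, where 43.2% did. The remaining 7 overlapped: RPL3L, RPL10L, RPL27A, RPL36A, RPL36AL, RPLP2 and RPS27L. Both CL1-5 arrays were at least 2-fold below both CL1-0 arrays for 24 members (9.6% of all genes) and at least 2-fold above for 0 (10.7%). On values as deposited 34 members lay below and 13 above. There the share over all genes was not counted, and the all-gene median for the controls was 0.83.

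Members with known disease or stress roles were read next. Of 9 genes listed for Diamond-Blackfan anaemia, 6 were measured, among them RPS19, the one most often mutated, and they had a median of -1.14 for the controls, with 4 at least 2-fold lower (14.2% of all measured genes were). Under quantile, loess and deposited values RPL35A alone of these was that much lower, and as deposited RPS19 had -0.33. RPS19, RPS7, RPS10 and RPS24 had -1.20, -1.34, -1.08 and -0.75, and a second bright probe set of RPS19 gave -0.81. RPL11, the MDM2 binder, had -0.95 and its ratios in CL1-0 and CL1-5 were 0.14 and -0.02. RPLP1, the acidic stalk protein beside RPLP2, had -0.90 for the controls and -0.05 in CL1-0. Members with the pyrimidine run at the exact start had a median of -0.99 for the controls over 33 genes, and members with a promoter but without it -0.90 over 18, with 16 and 6 genes at least 2-fold lower beside the 14.2% of all measured genes. Quantile, loess and deposited values called 2 to 4 members in all, so these counts hold for trimmed-mean scaling. The share of all genes was not counted under those other settings.

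Other genes of the ribosome pathway had ratios in both directions for the controls, by lists chosen with earlier results of these data known. Their counts past 2-fold are to be set beside the 17.1% of all measured genes higher and the 14.2% lower under this scaling. Other TOP mRNAs share the start motif and encode elongation and initiation factors and some other proteins, such as TPT1 and HNRNPA1. They had 0 of 18 higher, 3 at least 2-fold lower and a median of -0.42, but 0.46 as deposited, a count lower near that background. The 3 lower were EIF3A at -1.33, TPT1 at -1.17 and EIF2S3 at -1.08. Host genes of small nucleolar RNAs, which guide ribosomal RNA modification from the introns of TOP transcripts, had 4 of 6 measured lower and 1 higher, with a median of -2.11 that stayed below 0 under each processing, from -2.60 to -0.69. SNHG32 had -3.11, SNHG17 -2.97, ZFAS1 -2.16 and EPB41L4A-AS1 -2.05. Other translation factors had 2 higher and 5 lower of 27, the latter near the background, and a median of 0.20, or -0.29 with equal medians. EIF2S2 had -1.73, EIF1 -1.71, EIF5B -1.60 and ETF1 -1.55.

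Ribosome biogenesis factors had 2 higher and 6 lower of 43 for the controls, beside 17.1% and 14.2% of all measured genes, with a median of -0.27, or 0.60 as deposited. WDR43 had -2.10, NOP10 -1.94, SDAD1 -1.68 and TSR1 1.74. RNA polymerase I, which makes the ribosomal RNA precursor, had 1 higher and 2 lower of 13, also near those shares or below them, and a median of -0.15, or 0.72 as deposited, with POLR1E at 1.65, POLR1A at -1.50 and POLR1F at -1.12. Regulators around mTORC1 and MYC had 3 higher and 7 lower of 20 and a median of -0.40, or 0.47 as deposited. MXD1, a MYC antagonist, had -3.90, SESN2, an amino acid sensor that restrains mTORC1, -3.06, EIF4EBP1, the cap-binding inhibitor, -2.03, and the S6 kinase RPS6KB1 -1.79.

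In CL1-0 the same lists had medians of 0.21 for other TOP mRNAs, -0.28 for snoRNA host genes, -0.12 for translation factors, 0.05 for biogenesis factors, 0.06 for RNA polymerase I and -0.12 for mTORC1 and MYC regulators. Equal medians put the biogenesis and polymerase medians at or just below 0, and dropping _x_at and _s_at sets put that of translation factors at 0.02. Members of these lists at least 2-fold lower with AK4 vector were SNHG17 at -1.54, EIF2S1 at -1.29, EIF6 at -1.27, BYSL at -1.02, MXD1 at -1.77 and AKT1S1 at -1.14, and 0 were higher. Those lower were 1 of 6 snoRNA host genes, 2 of 27 translation factors, 1 of 43 biogenesis factors and 2 of 20 regulators. Among other TOP mRNAs it was 0 of 18 and for RNA polymerase I 0 of 13. Of all measured genes 1.17% were at least 2-fold lower and 3.22% higher. EIF6 keeps the large subunit from joining too early, and BYSL acts in small subunit assembly. In CL1-5 the medians ran from -0.08 to 0.09, and EIF5A, read at 365 and 171, was the 1 member of these lists past 2-fold, at -1.09. That was 1 of 27 translation factors, where 0.0131% of all measured genes were at least 2-fold lower and 0.0914% higher.

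Markers of other cell types were mostly low, and keratins and PECAM1 differed between the lines. Summed signals ran from 14.3 to 18.5 for leukocyte and 81.3 to 112 for fibroblast markers. Endothelial sums were 21.2 and 20.2 in CL1-0 and 61.1 and 68.8 in CL1-5, where PECAM1 read 45.1 and 54.0 against 7.12 and 6.20, with PTPRC and CDH5 at the floor on all arrays. The epithelial sum was 36.9 and 43.6 in CL1-0 and 1997 and 1758 in CL1-5, where KRT18 read 1681 and 1485 and KRT8 299 and 258. The rest of that list did not share this rise. EPCAM and CDH1 were under the floor in CL1-5 and above it only with AK4 vector in CL1-0, at 9.46 and 9.81. KRT19 was near the floor in CL1-5, at 8.63 and 7.02, and under it in CL1-0. LAMP3 of the alveolar list read 210 and 160 in CL1-0 and was at the floor in CL1-5. The part of these differences between the lines in the ribosomal protein values was not tested.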

How the data were processed

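The deposited values are linear intensities, 1 a probe set and array; MAS5 was used per the submitters' processing notes, while no source used here states its version, its role or a scaling target. The members and lists were chosen with earlier results of these data known. Arrays were brought to 1 common trimmed mean (2% off each end, 62 control probe sets left out), values under the 40th percentile of all 4 arrays (a signal of 6.94) were set to it as a floor, and log2 was taken. A gene was read by its probe set with 1 symbol and the highest mean log2. It was measured where at least 1 of 2 arrays lay above the floor and called at 2-fold. With 1 array a group there was no test, and precision is limited by how few arrays there are.

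Named members were those at least 2-fold different in any of the first 3 comparisons, the 5 highest and lowest above the floor, the paralogues with their main copies, and RPL11, RPLP1, RPLP2, RPL22 and the Diamond-Blackfan genes. Other lists (other TOP mRNAs, snoRNA host genes, translation factors, biogenesis factors, RNA polymerase I, mTORC1 and MYC regulators) gave up to 4 members past 2-fold, or the largest. The 5 marker lists were alveolar type II, epithelium, fibroblast, leukocyte and endothelium. Genes were chosen after their values were seen where single dim probe sets are named. The scripts were tested on simulated data. Python 3.11.15, numpy 2.4.6, pandas 2.3.3, R 4.3.3 and limma 3.58.1 were used. Symbols came from GEO's platform annotation: 41097 probe sets had 1, 1801 several and 11777 none listed.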

Additional observations from a re-analysis of the deposited data

How the results depend on the processing

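No paired analysis was possible because each group holds 1 array and no replicate numbers pair the groups. A median was counted as staying where it moved by less than the SD between bright probe sets of a gene (0.07 to 0.19), and a count or share where it stayed within 1.5 times. By that rule 69 summary values stayed and 35 moved over the 8 alternatives. In CL1-0 the members' median was 0.050 after quantile normalization, and without _x_at and _s_at probe sets 2 members were at least 2-fold higher and 0 lower. For the control arrays of the lines the median was -0.24 (quantile), -1.45 (common median), -0.32 (loess), -0.090 (as deposited), -0.70 (mean of all probe sets) and -0.37 (without _x_at and _s_at sets), and the count lower was 4, 48, 4, 2, 15 and 5 in that order. The count higher was 2 as deposited, 1 with the mean and 2 without _x_at and _s_at sets. No 2-fold count under another setting in this section has the share of all measured genes beside it, as that share was not counted. For the AK4-altered arrays the medians were -0.26, -1.49, -0.40, -0.21, -0.74 and -0.52, and the count lower was 4 (quantile), 5 (loess), 3 (as deposited), 22 (mean) and 10 (without these sets). There 3 were higher as deposited and 1 without these sets. Without them the shares of summed signal were 3.70%, 4.12%, 2.32% and 2.25%. Some called members turned sign where dim probe sets took the place of the bright one: for the controls RPL35A at 0.0092, RPL37A at 0.48, RPL7 at 0.15, RPS15A at 2.41 and RPS6 at 0.62 without _x_at and _s_at sets. With the mean of all probe sets RPS15A stood at 0.53 and RPS23 at 0.75, and RPL38 on the AK4-altered arrays at 0.19. The cause of the scaling differences was not tested. A floor at the 60th percentile or log2(signal + 1) moved no summary value beyond that tolerance; the AK4-altered count lower was 41 with log2(signal + 1). For the dim reads RPL27A, RPLP2 and RPL36A the signal over background limits what can be said.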

Other observations

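The 65 probe sets with several symbols, a ribosomal one among them, belong to no count of the report, and 48 of them had a mean scaled signal of at least 500. Over these 48 the median log2 ratio was 0.19 in CL1-0, with 44 above 0, and -0.03 in CL1-5, with 13 above 0. Between the control arrays it was -0.81 and between the AK4-altered arrays -1.08 under trimmed-mean scaling. A set of 29 bright genes that are not ribosomal proteins, chosen after the values were seen, had medians of -0.04 in CL1-0, -0.03 in CL1-5 and -0.56 between the control arrays. There 8 were at least 2-fold lower and 1 higher, where 14.2% and 17.1% of all measured genes were.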
